A study of Rattus norvegicus with 4 samples.

Results

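Dopamine neurons of the rat ventral tegmental area were picked out of a single-nucleus RNA sequencing data set as the barcodes that carried both Th and Slc6a3 transcripts. A barcode was taken when it held at least 2000 UMIs (unique molecular identifiers, 1 for each captured transcript) in all, at least 2 UMIs of Th and at least 2 of Slc6a3. This gave 339 dopamine nuclei among 21606 barcodes, of which 15296 reached 2000 UMIs. They were compared with 2993 other neurons, the remaining barcodes of that depth with at least 2 UMIs of Slc17a6, the vesicular transporter of glutamate neurons, or of Gad1, an enzyme of GABA synthesis. The members were thus chosen by their measured Th and Slc6a3 UMIs and the other neurons by Slc17a6 and Gad1. The levels of these 4 genes in the gated groups are given as a description. Th and Slc6a3 were left out of all tests, and Slc17a6 and Gad1 out of the tests that involve the other neurons. Slc17a6 and Gad1 were not excluded from the sex test or the splits of members, apart from Slc17a6 in its own split. Both also enter the detection test below.

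The tissue was the microdissected ventral tegmental area of Sprague-Dawley rats aged 90 to 120 days, which had received no experimental treatment. There were 4 libraries, female 1, female 2, male 1 and male 2, and each one pooled the tissue of 3 animals of 1 sex. All groups shared strain, age and handling, and no group was treated, so sex was the only factor the labels give between libraries. The library was the replicate, and single animals cannot be told apart within a pool. Nuclei were stained and sorted before capture, and the counts are therefore of nuclear RNA.

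Dopamine neurons of the ventral midbrain make dopamine from tyrosine. Tyrosine hydroxylase (Th) and the decarboxylase Ddc carry out the synthesis, the vesicular transporter Slc18a2 packs the product into vesicles, and the plasma membrane transporter Slc6a3 takes released dopamine back up. The identity is held by transcription factors such as Nr4a2, Pitx3, Lmx1a, Lmx1b and En1. These neurons project to the striatum and the frontal cortex, are known for their part in reward learning, and fall into subtypes that differ in Aldh1a1, Calb1, Cck, Vip, Gad2 or Slc17a6.

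The start sites of the 4 genes that define the dopamine phenotype here are shown because 2 of them chose the nuclei and the other 2 were measured independently of the choice. The sequences run from 250 bases before to 50 bases after each annotated start, 5′ to 3′, and come from RefSeq on the GRCr8 assembly. The deposited counts were made on another build, rn6. Th lies at chr1:207508169-207508468 (minus strand), Slc6a3 at chr1:31578913-31579212 (minus strand), Slc18a2 at chr1:268399771-268400070 (plus strand) and the first of 3 entries for Ddc at chr14:90682734-90683033 (minus strand). Capitals mark the motifs that were found.
Th: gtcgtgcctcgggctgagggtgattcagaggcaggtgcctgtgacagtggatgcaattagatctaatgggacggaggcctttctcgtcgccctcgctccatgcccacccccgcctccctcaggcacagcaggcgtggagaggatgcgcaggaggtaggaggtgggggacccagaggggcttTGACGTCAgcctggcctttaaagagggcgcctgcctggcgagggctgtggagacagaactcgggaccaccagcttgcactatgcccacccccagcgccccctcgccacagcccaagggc
Slc6a3: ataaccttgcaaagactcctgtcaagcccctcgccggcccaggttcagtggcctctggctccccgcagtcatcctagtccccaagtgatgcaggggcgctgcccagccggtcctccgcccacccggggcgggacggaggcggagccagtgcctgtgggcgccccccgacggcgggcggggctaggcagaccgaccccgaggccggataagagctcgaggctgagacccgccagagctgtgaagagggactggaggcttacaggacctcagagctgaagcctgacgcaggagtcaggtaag
Slc18a2: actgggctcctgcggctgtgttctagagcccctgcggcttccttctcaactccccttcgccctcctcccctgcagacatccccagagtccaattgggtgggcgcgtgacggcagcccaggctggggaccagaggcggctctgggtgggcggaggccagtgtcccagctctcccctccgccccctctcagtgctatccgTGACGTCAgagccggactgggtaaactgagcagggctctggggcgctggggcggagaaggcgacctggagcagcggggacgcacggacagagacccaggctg
Ddc: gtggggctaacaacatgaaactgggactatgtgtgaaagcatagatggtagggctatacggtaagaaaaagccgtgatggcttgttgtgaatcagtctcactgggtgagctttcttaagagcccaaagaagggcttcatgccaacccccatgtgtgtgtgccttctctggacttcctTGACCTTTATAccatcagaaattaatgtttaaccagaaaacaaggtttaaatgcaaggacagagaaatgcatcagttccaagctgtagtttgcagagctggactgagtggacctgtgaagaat
Searched on both strands were the cyclic AMP response element TGACGTCA, the Nr4a2 element AAAGGTCA, the Pitx3-like homeobox motif TAATCC and the TATA box TATAAA. The Th and Slc18a2 sequences both held the cyclic AMP response element, starting at position -69 and at position -52 from the start site, and 1.83% of all 33465 promoter sequences held it. The Ddc sequence held the Nr4a2 element on the opposite strand at position -73 (1.43% of all promoters), overlapping a TATA box on the opposite strand at position -68 (14.2%). None of the 4 motifs was found in the Slc6a3 sequence or in the other 2 Ddc entries, and the homeobox motif, present in 7.17% of all promoters, was in none of those listed. A match describes letters in this window and is not evidence of binding.

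The libraries gave 77, 84, 78 and 100 dopamine nuclei, in the order female 1, female 2, male 1 and male 2 that is used for all values below. Their nuclei had a median of 9130 UMIs, against 8162 for the other neurons, and their summed counts were 772261 to 969264 UMIs a library. They made up 2.16% ± 0.07 of barcodes of that depth in females and 2.32% ± 0.28 in males (mean ± SD, n = 2 per sex). An exact two-sided permutation test gave p = 0.667, with 0.333 the smallest p that this design allows. As a share of gated neurons they were 10.9% ± 2.12 and 9.70% ± 1.15 (SD, n = 2 per sex, exact permutation p = 0.667). The direction of the first difference turned when male 1 was left out (to 0.0365 percentage points) and that of the second when female 2 was left out (to -0.344), so no difference in abundance between the sexes was detectable. Of the 339 nuclei, 16 were among the 980 barcodes marked as likely doublets and 23 held at least 2 UMIs of the oligodendrocyte gene Mog. Pairs of libraries shared 4 to 9 barcode sequences.

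The gate on the defining genes separated the nuclei as follows. Th stood at 747, 566, 764 and 808 CPM (the UMIs of a gene, scaled by the summed UMIs of the group) in the dopamine nuclei and at 20.1 to 28.7 CPM in the other neurons. Slc6a3 stood at 913, 790, 1036 and 836 CPM and at 2.62 to 4.55 CPM. At the edge of the gate, 76 members had exactly 2 UMIs of Th or of Slc6a3, and their pooled nuclei held Slc18a2 at 363 CPM and Ddc at 1346 CPM. The 263 members with at least 3 of each held 395 and 1531 CPM. Just outside, the 42 nuclei with at least 2 Th UMIs and 1 Slc6a3 UMI held Slc18a2 at 155 CPM and Ddc at 833 CPM, and the 34 with 1 Th UMI and at least 2 Slc6a3 UMIs held 175 and 1198 CPM. The 248 nuclei with at least 2 Th UMIs and no Slc6a3 UMI held Slc18a2 at 52.7 CPM, Ddc at 480 CPM and Slc17a6 at 221 CPM. No barcode under 2000 UMIs met both conditions, and 8 members had fewer than 4000 UMIs.

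**Figure D1:**
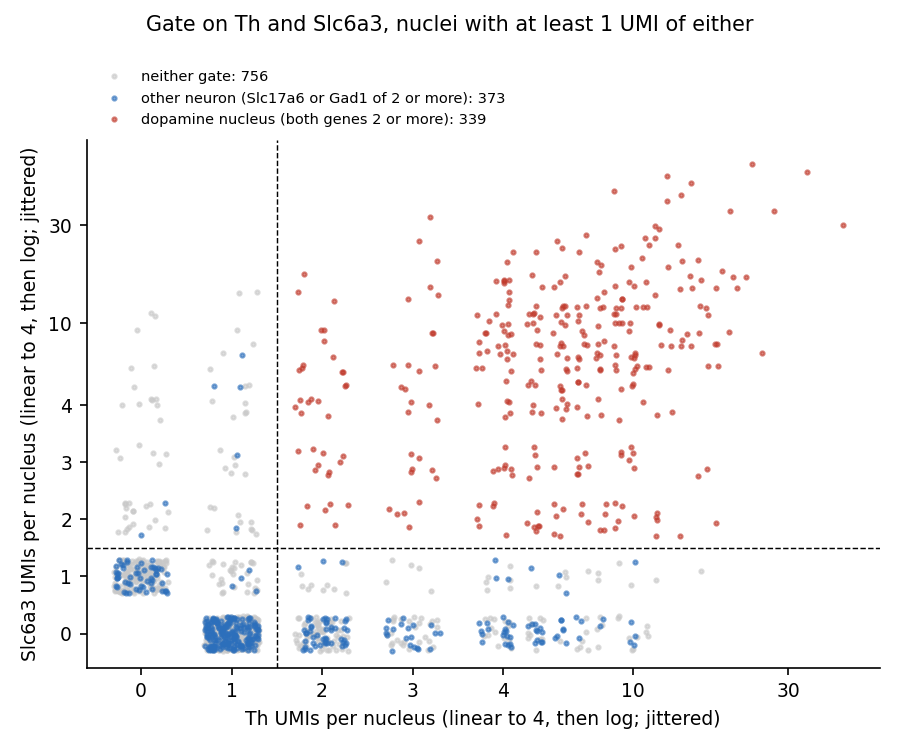
UMIs of Th (x axis) and of Slc6a3 (y axis) in each nucleus of at least 2000 UMIs that held at least 1 UMI of either gene, jittered on axes linear to 4 and log above, with the gates as dashed lines. The 339 dopamine nuclei (red) fill the upper right field, and the 783 nuclei with 1 or more Th UMIs and no Slc6a3 UMI lie along the bottom.

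The label was checked on Slc18a2 and Ddc, which the gate did not use. Ddc (ENSRNOG00000004327) stood at 1625, 1463, 1576 and 1344 CPM in the dopamine nuclei and at 56.7, 61.9, 62.0 and 58.1 CPM in the other neurons. All 4 dopamine values lay more than an order of magnitude above all 4 others. The log2 fold change was 4.71 ± 0.08 (SE, 4 libraries), the lowest p of all genes tested, with a Benjamini-Hochberg adjusted p of 5.75e-19 in edgeR's quasi-likelihood test. Slc18a2 (ENSRNOG00000008890) stood at 449, 324, 432 and 356 CPM against 12.3, 14.8, 13.5 and 12.5 CPM, a log2 fold change of 4.95 ± 0.11, again with no overlap. Noradrenaline neurons also make dopamine as a precursor, but their markers Dbh, Slc6a2 and Phox2a had 0 UMIs in the members. Phox2a was at 0 in the other neurons too, where Dbh had 1 UMI and Slc6a2 4, so these zeros do not set the members apart. Of the 4 serotonin markers, Tph2 had 2 UMIs in all members, Htr1a 1, and Slc6a4 and Fev 0, and Fev was at 0 in the other neurons too. Oligodendrocyte markers, 8 genes summed, stood at 584, 1196, 1028 and 1051 CPM in dopamine nuclei, 786 to 825 CPM in other neurons and 25536 to 43152 CPM in oligodendrocyte-gated barcodes, and none of the 8 was called.

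Over all genes, the dopamine nuclei differed from the other neurons in many places. A gene was called when its adjusted p was under 0.05 and its log2 fold change exceeded 1 in size. Of 12307 genes tested, 1211 (9.84%) were called, 539 (4.38%) higher and 672 (5.46%) lower in dopamine nuclei. The median log2 fold change of all genes was -0.01. The 4 dopamine values and the 4 other values did not overlap in 3232 of the genes tested (26.3%), which is the background for the statements on overlap below. With each nucleus thinned to 2000 UMIs, 8923 genes could be tested and 718 were called. The count was 1257 without the nuclei holding 2 or more Mog UMIs, and 1254 without doublet calls.

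The genes below were grouped in 13 lists by role. Up to 6 per list were named by lowest p, and further ones were added after their values were seen. Synthesis and storage genes come first. Of 16 listed genes 13 could be tested, and 6 were higher and none lower (all genes: 4.38% higher, 5.46% lower). The median log2 fold change over the tested genes was 0.88. Gch1 (ENSRNOG00000011039), which makes the first step of the tetrahydrobiopterin cofactor that Th needs, stood at 120.4, 124, 145 and 129 CPM against 3.37, 1.50, 2.59 and 3.88 CPM (log2 fold change 5.55 ± 0.17). Slc10a4 (ENSRNOG00000026091), a vesicle protein of monoamine neurons, stood at 25.9, 23.2, 24.8 and 27.0 CPM against 0.880, 0.562, 0.371 and 0.896 CPM (5.24 ± 0.33). Aldh1a1, which oxidises the aldehyde formed from dopamine and also makes retinoic acid, stood at 334, 251, 479.7 and 321 CPM against 9.09, 5.62, 6.67 and 10.8 CPM (5.50 ± 0.14). None of the 3 overlapped between groups, which held for 26.3% of all genes. Maoa, which breaks dopamine down, was called by a smaller margin at 1.25 ± 0.15, with 45.4 to 74.3 CPM against 22.7 to 27.9 CPM. The cofactor genes Pts (0.49 ± 0.25) and Qdpr (0.56 ± 0.18) were not called, nor was Maob (-0.68 ± 0.24), which was lower against the Gad1-gated neurons alone (-1.68 ± 0.24).

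Lineage transcription factors followed, with 11 of 13 tested genes higher and none lower (all genes: 4.38% higher, 5.46% lower). Their median log2 fold change was 1.80. Pitx3 (ENSRNOG00000019194) stood at 49.2, 67.4, 54.7 and 47.2 CPM against 2.64, 1.31, 1.24 and 2.69 CPM (4.83 ± 0.25). Bnc2, a zinc finger factor, stood at 531, 550.5, 553 and 559 CPM against 41.1, 31.1, 28.3 and 45.7 CPM (3.99 ± 0.10). En1, a midbrain patterning gene that adult dopamine neurons keep, was higher by 3.27 ± 0.24, Lmx1b by 2.34 ± 0.14, Satb1 by 1.80 ± 0.09, Nr4a2 by 1.80 ± 0.15 and Foxa2 by 1.59 ± 0.22. Lmx1a passed narrowly at 1.03 ± 0.12, with 192, 229.9, 176 and 174 CPM against 76.7, 90.2, 95.5 and 135 CPM. It fell just under the size limit without female 1 (0.93) or female 2 (0.92). The same held for members with at least 3 UMIs of Th and of Slc6a3 (0.95) and without a filter on low counts (0.98). Sox6 was not called (0.19 ± 0.16, 62.9 to 143 against 80.1 to 133 CPM).

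The other neurons are of 2 kinds, and the dopamine nuclei were also set against each kind alone, with 19 nuclei in both kinds. The same dopamine sums enter both comparisons, against 1779 nuclei with Slc17a6 and 1233 with Gad1. Against the first, 976 of 11063 genes were called (8.82%), 459 higher (4.15%) and 517 lower (4.67%). Against the second it was 1159 of 10806 (10.7%), 536 higher (4.96%) and 623 lower (5.77%). Lmx1a stood at 119 to 189 CPM in Slc17a6-gated and 2.90 to 9.20 CPM in Gad1-gated neurons. Its log2 fold change was 0.33 ± 0.10 against the Slc17a6-gated neurons, where it was not called, and 5.14 ± 0.17 against the Gad1-gated ones. Lmx1b (1.66 ± 0.12 and 6.46 ± 0.22), Nr4a2 (1.14 ± 0.14 and 4.85 ± 0.24) and Bnc2 (3.36 ± 0.10 and 6.55 ± 0.19) were called against both, by a smaller margin against the Slc17a6-gated neurons. Slc18a2 (5.21 ± 0.13 and 4.62 ± 0.10) and En1 (3.22 ± 0.25 and 3.30 ± 0.34) were called against both by similar amounts.

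Some genes were called against 1 kind and not the other. Sox6 was higher than in the Slc17a6-gated neurons (1.13 ± 0.20) and was not called against the Gad1-gated ones (-0.59 ± 0.15). Bdnf, a neurotrophin, was not called against all other neurons (-0.18 ± 0.13), stood 2.33 ± 0.17 on the log2 scale above the Gad1-gated neurons, and was not called against the Slc17a6-gated ones (-0.79 ± 0.11). The GABA markers Gad2 and Slc32a1 were lower than in all other neurons (-1.56 ± 0.20 and -2.14 ± 0.19). That group was chosen in part by Gad1, itself a GABA gene, so these 2 values are a description of the gate as well. In the Gad1-gated neurons Gad2 stood at 396 to 530 CPM and Slc32a1 at 205 to 276 CPM. Against Slc17a6-gated neurons Gad2 and Slc32a1 were not called, at 0.20 ± 0.25 and 0.23 ± 0.26. The differences between the paired fold changes were not themselves tested.

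**Figure D2:**
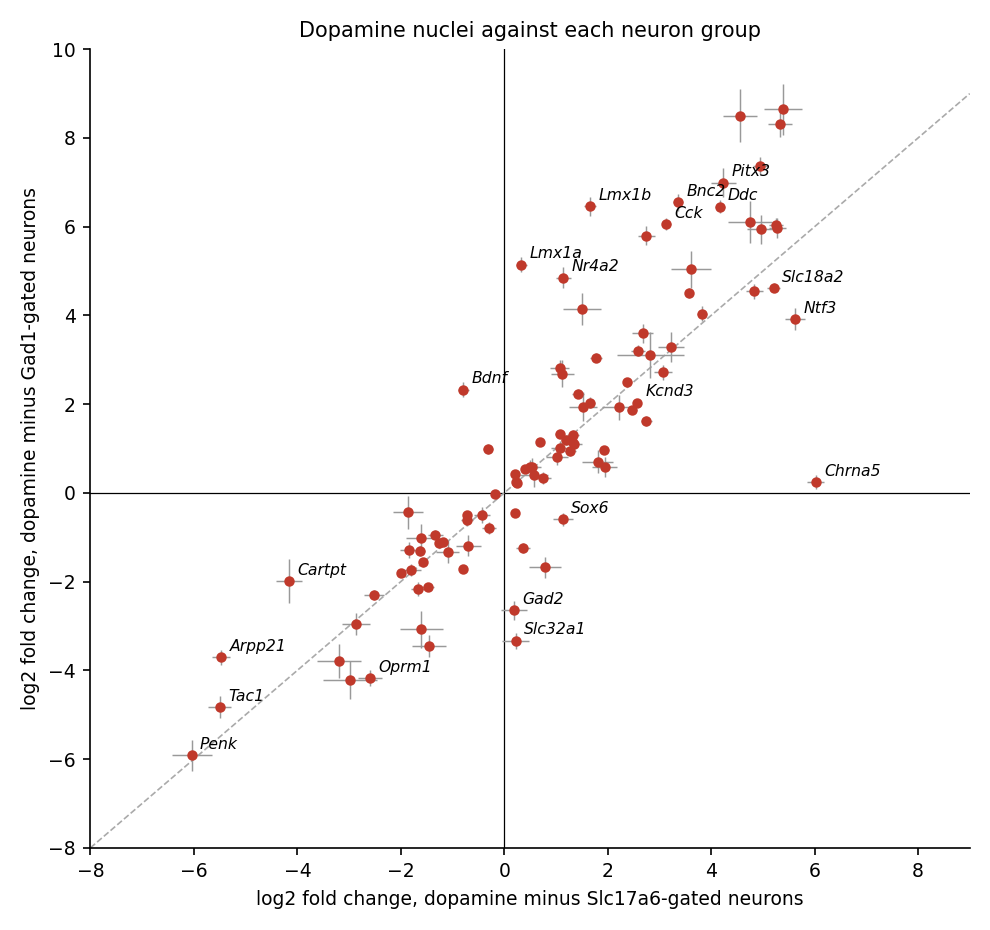
Log2 fold changes of the named genes in dopamine nuclei against Slc17a6-gated neurons (x axis) and against Gad1-gated neurons (y axis), with SE bars from 4 libraries and equality as the dashed line. Lmx1a, Lmx1b and Nr4a2 lie far above the line, and Chrna5 lies far to its right.

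Receptors for the transmitters that reach these neurons were called in both directions. Drd2, the autoreceptor through which dopamine inhibits dopamine neurons, stood at 344, 298, 366 and 274 CPM against 29.3, 18.4, 18.8 and 23.0 CPM (3.92 ± 0.11), with no overlap. Drd3 was lower at -1.26 ± 0.40 on 14 UMIs in all dopamine nuclei, a call that was lost with DESeq2 and without female 1, male 1 or male 2, and the other 3 dopamine receptors could not be tested. Of the nicotinic acetylcholine receptor subunits, 8 of 9 could be tested, with a median of 1.14. Among the 8, 5 were higher and 1 lower (all genes: 4.38% higher, 5.46% lower). Chrna6 (ENSRNOG00000012283) stood at 106, 130.1, 126 and 110.1 CPM against 4.99, 5.62, 3.83 and 4.48 CPM (4.71 ± 0.15). Its partner subunit Chrnb3 (ENSRNOG00000012448) stood at 149, 207, 151 and 140.5 CPM against 3.08, 4.12, 2.84 and 4.63 CPM (5.51 ± 0.14). Both were more than 20-fold above the other neurons in the mean of the 4 libraries.

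Chrna5, an accessory subunit, stood at 177, 103, 134 and 120.3 CPM against 45.6, 81.2, 34.5 and 37.4 CPM (1.55 ± 0.19). The other neurons were split: it was at 1.59 to 3.45 CPM in the Slc17a6-gated and 87.4 to 152 CPM in the Gad1-gated nuclei. Chrna5 was therefore 6.02 ± 0.17 above the former, and at 0.25 ± 0.15 it was not called against the latter (adjusted p = 0.231 by edgeR). Chrna3 also lost its call against the Gad1-gated neurons (0.58, adjusted p = 0.0605 by edgeR), and Chrna4 was near the size limit, at 1.05 overall and 0.94 without male 1. Chrna2 had 0 UMIs in dopamine nuclei against 6.30 to 17.2 CPM in other neurons, at least 11.9-fold lower when 3 UMIs over the group set the floor. Chrna7 was not called (-0.68 ± 0.12).

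Trophic signalling genes gave 2 higher and 2 lower of 8 tested (all genes: 4.38% higher, 5.46% lower). Ret, the signalling receptor for glial cell line-derived neurotrophic factor, stood at 271, 180.0, 255 and 246 CPM against 35.8, 40.5, 32.1 and 35.0 CPM (2.80 ± 0.11). Ntf3, which encodes the ligand neurotrophin 3, stood at 89.3, 87.1, 113 and 92.2 CPM against 2.93, 8.25, 2.59 and 2.69 CPM (4.69 ± 0.24). Its own receptor Ntrk3 was not called (-0.09 ± 0.07), nor was Ntrk2, the receptor of Bdnf (-0.12 ± 0.07). Nrtn, a ligand of the same family as glial cell line-derived neurotrophic factor, was lower at -1.60 ± 0.36 on 11 UMIs. The co-receptor Gfra2 was not called at -0.48 ± 0.12, but it was lower than in the Gad1-gated neurons (-1.24 ± 0.11) and not called against the Slc17a6-gated ones (0.36 ± 0.14).

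Receptors for peptides and hormones gave 4 higher and 4 lower of 16 tested (all genes: 4.38% higher, 5.46% lower), with a median of -0.19. The mu opioid receptor Oprm1 stood at 5.18, 17.4, 5.16 and 7.87 CPM against 89.0, 146, 87.4 and 87.3 CPM (-3.47 ± 0.18). The delta receptor Oprd1 was also lower (-3.48 ± 0.40, 7 UMIs in all dopamine nuclei), while the kappa receptor Oprk1 was higher (2.11 ± 0.28), at 37.6, 13.9, 20.6 and 18.0 CPM against 4.55, 5.62, 5.56 and 5.53 CPM. The 3 opioid receptors thus differed in direction, and none of the 3 overlapped between groups (26.3% of all genes did not). Tacr3, the neurokinin B receptor, was higher (2.17 ± 0.10) and Tacr1, the substance P receptor, lower (-1.40 ± 0.29). The cholecystokinin receptor Cckar (1.77 ± 0.42, 27 UMIs) and the oestrogen receptor Esr2 (1.26 ± 0.26, 55 UMIs) were higher, Cckar not without female 1 (adjusted p = 0.0598 by edgeR) and Esr2 not against Gad1-gated neurons alone (0.71). The mineralocorticoid receptor Nr3c2 was lower (-1.21 ± 0.09), and Esr1 was just under the size limit (-0.90 ± 0.22) but past it against Gad1-gated neurons alone (-1.19 ± 0.23).

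Peptide genes gave 3 higher and 5 lower of 11 tested (all genes: 4.38% higher, 5.46% lower). Cck (ENSRNOG00000019321), the peptide of many mesolimbic dopamine neurons, stood at 1013, 766, 863 and 1012 CPM against 94.1, 36.6, 72.0 and 88.1 CPM (3.75 ± 0.11). Tac1, the precursor of substance P, stood at 6.47, 6.97, 0 and 8.99 CPM against 164, 219, 204 and 266 CPM (-5.23 ± 0.22), and the enkephalin precursor Penk stood at 0, 4.65, 0 and 1.12 CPM against 125, 56.2, 132 and 98.6 CPM (-6.07 ± 0.34). Cartpt (-3.67 ± 0.27), Pnoc (-2.57 ± 0.27) and Sst (-2.33 ± 0.39) were lower as well, Sst not when 1 UMI of Th and of Slc6a3 was enough for a member (-0.40). Grp was higher (4.06 ± 0.38, 19.4 to 33.0 CPM). Nts missed the size limit (0.95 ± 0.18) but passed it against Slc17a6-gated neurons alone (1.02 ± 0.21), with 75.1, 56.9, 32.0 and 144 CPM in dopamine nuclei.

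Vip was a special case among the peptides. It stood at 0, 232, 0 and 95.5 CPM against 8.94, 7.31, 8.16 and 7.92 CPM, and its log2 fold change of 2.91 ± 0.59 rested on 2 libraries. All 285 UMIs came from 7 nuclei, and 81 of them from a single nucleus. Without female 2 the adjusted p was 0.0781 (edgeR), and DESeq2 gave -0.38, so the call did not hold.

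Ion channel genes that set the firing of these neurons gave 8 higher and 5 lower of 30 tested (all genes: 4.38% higher, 5.46% lower). Their median log2 fold change was -0.04. Kcnd3, which carries the A-type potassium current, stood at 1114, 1193, 1069 and 1105 CPM against 217, 258, 232 and 237 CPM (2.31 ± 0.06). Kcnn3, the small conductance calcium-activated potassium channel, stood at 322, 317, 327 and 290.0 CPM against 58.4, 66.9, 58.0 and 61.4 CPM (2.43 ± 0.08). Kcnj6, the potassium channel opened by Drd2 and other inhibitory receptors, stood at 212, 185, 258 and 187 CPM against 47.4, 45.0, 47.2 and 59.3 CPM (2.15 ± 0.11). In all 3 the groups were far apart.

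Kcnj5, a related channel subunit, was higher (1.66 ± 0.26) while Kcnj3 was lower (-1.53 ± 0.10). The cation channel Trpc6 was higher (2.92 ± 0.15). The calcium channel Cacna1e was higher (1.24 ± 0.07) and Cacna1i, a low voltage-activated one, lower (-2.90 ± 0.25). Kcnip4 (1.49 ± 0.10) and Scn9a (1.15 ± 0.08) were higher, Kcnip4 by 0.98 against Gad1-gated neurons alone, and Scn8a lower (-1.15 ± 0.08). Hcn2, 1 of the channels behind the hyperpolarisation-activated current (-0.45 ± 0.16), and the pacemaker calcium channel Cacna1d (0.28 ± 0.06) were not called.

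Of 21 glutamate receptor genes tested, 8 were lower and 2 higher (all genes: 5.46% lower, 4.38% higher), with a median of -0.41. Grik2, a kainate receptor subunit, stood at 814, 965, 764 and 853 CPM against 3267, 3371, 3438 and 3531 CPM (-1.94 ± 0.06), whereas its relative Grik3 stood at 365, 459, 353 and 328 CPM against 86.1, 89.4, 77.7 and 85.0 CPM (2.21 ± 0.08). These 2 subunits of 1 receptor class therefore went in opposite directions in all 4 libraries. Grm7 (-2.47 ± 0.15), Grm5 (-1.59 ± 0.08) and Gria4 (-1.23 ± 0.07) were lower, and Grin2a was higher (1.17 ± 0.09). Gria4 was not called against Slc17a6-gated neurons alone (-0.79).

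GABA receptor genes gave 1 higher and 3 lower of 12 tested (all genes: 4.38% higher, 5.46% lower). The subunit Gabra4 stood at 343, 286, 362 and 281 CPM against 119, 65.6, 144 and 96.2 CPM (1.67 ± 0.10). The alternative alpha subunits Gabra2 (-1.23 ± 0.12) and Gabra5 (-1.67 ± 0.16) were lower, Gabra2 not against Gad1-gated neurons alone (-0.94). Gabrb2 (-0.63 ± 0.07) and Gabrg1 (-0.52 ± 0.12) were not called.

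Axon guidance genes gave 2 higher and 6 lower of 23 (all genes: 4.38% higher, 5.46% lower). Ntn1 (ENSRNOG00000003947), the secreted guidance cue netrin 1, stood at 802, 806, 686 and 772 CPM against 65.5, 58.3, 43.5 and 57.4 CPM (3.84 ± 0.08) and had the lowest p after Ddc. Slit1, a repellent ligand, was higher (1.14 ± 0.12), though not against Gad1-gated neurons alone (0.96). The semaphorin receptors Nrp1 (-1.81 ± 0.16) and Nrp2 (-1.90 ± 0.14), their ligands Sema3a (-3.63 ± 0.45, 6 UMIs) and Sema3c (-1.17 ± 0.22), the ephrin receptor Epha7 (-1.80 ± 0.09) and the netrin receptor Unc5b (-1.49 ± 0.31) were lower. Sema3c was under the size limit without male 1 (-0.85), and Unc5b was not called against Gad1-gated neurons alone (-0.44). Robo2, a Slit receptor, was under the size limit (0.86 ± 0.06) but past it against Gad1-gated neurons alone (1.14 ± 0.07).

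**Figure D3:**
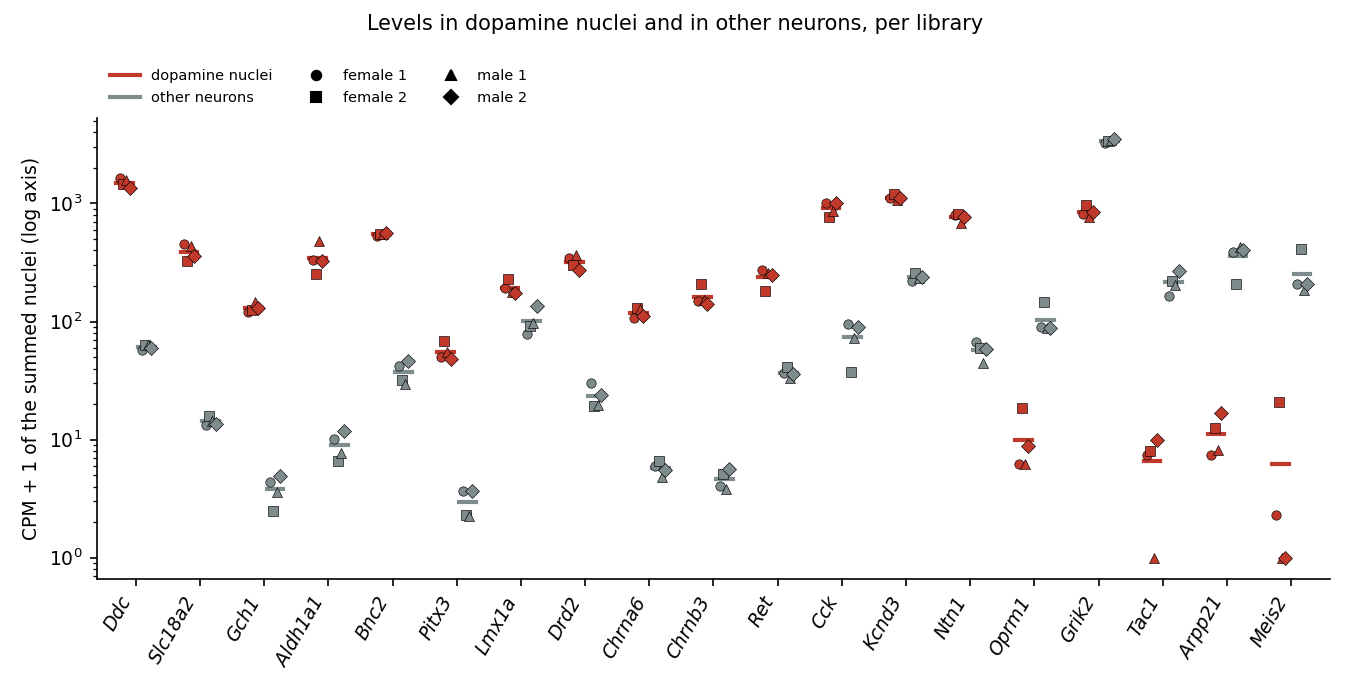
Levels of 19 genes as CPM + 1 on a log axis, in dopamine nuclei (red) and other neurons (grey), with 1 marker per library and a bar at the mean of 4. The groups do not overlap in any of these 19 chosen genes, as in 26.3% of all genes tested, and Lmx1a shows the smallest gap among the genes that were higher.

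Outside the lists, among genes that reached 20 CPM, the largest increases included genes that are not standard dopamine markers. Slc39a4, a zinc transporter, stood at 33.7, 20.9, 33.0 and 21.4 CPM against 0.293, 0, 0.741 and 0.448 CPM (6.07 ± 0.39). Tmem207 was higher by 5.92 ± 0.21, Fignl1 by 5.30 ± 0.26 and Zar1 by 5.21 ± 0.36, each in 4 of 4 libraries. The largest decreases included Epyc, with 0 UMIs in dopamine nuclei and 12.3 to 37.5 CPM in other neurons, at least 25.1-fold lower with the floor of 3 UMIs over the group. The homeobox factors Pax7 (-6.10 ± 0.56), Pax3 (-5.07 ± 0.47) and Meis2 (-5.56 ± 0.27) and the growth factor Kitlg (-5.25 ± 0.36) were lower. In Gad1-gated neurons Meis2 stood at 475 to 756 CPM and in Slc17a6-gated ones at 1.78 to 24.2 CPM. Epyc (39.7 to 70.5 against 0 to 0.64 CPM), Pax7 (41.3 to 71.5 against 0 to 0.69) and Pax3 (67.1 to 106 against 0 to 0.79) were split likewise. Kitlg stood at 46.45 to 101 and 4.56 to 15.2 CPM. None of these genes could be tested against the Slc17a6-gated neurons alone, so their decreases describe the Gad1-gated part of the other neurons. Arpp21, an RNA-binding phosphoprotein, was lower than both kinds, at -5.47 ± 0.17 and -3.70 ± 0.17.

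Transmitter genes of other neuron classes were looked for in single members. Each nucleus was thinned to 2000 UMIs, and the share with at least 1 UMI was set against oligodendrocyte-gated barcodes of the same library, which should lack these genes and give the background level. That background leaves out barcodes with 2 or more UMIs of Slc17a6 or Gad1, and its level without that exclusion was not computed. Members had no such limit, so the comparisons of Slc17a6 and Gad1 are set in part by the gates and are a description. How far the exclusion also lowers Gad2 and Slc32a1 in the background was not tested. Thinned, Gad2 was found in 3.62%, 8.53%, 11.4% and 5.20% of dopamine nuclei against a mean of 1.71% ± 0.27 in the background (SD, n = 4). Unthinned, the share was 14.0% on average against 2.76%, at median depths of 9130 and 3063 UMIs. Slc17a6 was found in 4.92% ± 0.44 against 0.95% ± 0.11, and Slc32a1, the vesicular GABA transporter, in 4.26% ± 2.16 against 0.83% ± 0.10 (unthinned 17.1% and 9.43%). Each of the 3 was above background in 4 of 4 libraries. The exact sign-flip test gave 0.125, the smallest p that 4 libraries allow, and 0.333 after adjustment over 8 comparisons, so none passed. Gad1 was no higher than the background, at 0.76% ± 0.73 against 0.80% ± 0.20 (3.50% against 1.52% unthinned). None of the 339 members held a UMI of Slc17a7, which allows a share of nuclei with a UMI of up to 0.885% and does not limit the share that express the gene. The thinned excess over background was smaller for members with at least 3 UMIs of Th and of Slc6a3. It fell from 5.47 to 3.49 points for Gad2, from 3.98 to 2.70 for Slc17a6 and from 3.42 to 1.50 for Slc32a1. The adjusted p of Slc32a1 was then 0.8 by the exact sign-flip test.

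Members were next split by single genes to see how they vary among themselves, with the splitting gene left out of the test. In these tests a gene was called on its adjusted p alone, and nuclei with exactly 1 UMI of the splitting gene entered neither side. The splits share nuclei, so their results are not independent.

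Of the 3 splits, that by Aldh1a1 had the most even sides. At least 2 UMIs were present in 114 nuclei (24, 30, 31 and 29) and none in 202, with median depths of 9935 and 8886 UMIs. Of 6909 genes tested, 397 were called (5.75%), 188 higher (2.72%) and 209 lower (3.03%) in the Aldh1a1-positive nuclei. Without male 1 the count was 224, with DESeq2 185 and with nuclei thinned to 2000 UMIs 115 of 1629 tested. Slc18a2 and Ddc were not called. No gene of the synthesis list was called of 8 tested, too few to tell from the 5.75% over all genes.

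Genes higher with Aldh1a1 were led by Grp, the gastrin-releasing peptide. Grp stood at 59.4, 60.0, 88.2 and 91.0 CPM in the positive nuclei and at 0, 1.96, 0 and 0 CPM in the nuclei without Aldh1a1 (6.55 ± 0.55). All 20 nuclei with at least 2 Grp UMIs were among the 114 with Aldh1a1. Lmo3, a transcriptional cofactor, stood at 289, 249, 234 and 214 CPM against 39.5, 56.9, 32.4 and 73.0 CPM (2.28 ± 0.20). The orexin receptor Hcrtr2 stood at 154, 159, 163 and 218 CPM against 50.4, 41.2, 30.4 and 38.3 CPM (2.11 ± 0.19). Over all members Hcrtr2 was not called against the other neurons (0.08 ± 0.10), with 0.99 ± 0.12 against the Gad1-gated and -0.32 ± 0.10 against the Slc17a6-gated ones. Neurod6 (1.95 ± 0.24), a neuronal helix-loop-helix factor, and Nrp1 (2.18 ± 0.32) were higher too. Of the genes with the lowest p over the whole test, Nell1 (1.64 ± 0.10), Brinp3 (1.92 ± 0.13), Plod2 (2.59 ± 0.18), the cadherin Cdh8 (1.42 ± 0.10) and Astn2 (1.51 ± 0.11) were higher. Slit2 (0.91 ± 0.12) and the GABA receptor subunit Gabrb2 (0.81 ± 0.15) were higher.

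Genes lower with Aldh1a1 included markers of other subtypes. Nts, the neurotensin precursor, stood at 7.92, 0, 5.51 and 0 CPM against 121, 96.1, 55.2 and 232 CPM (-5.01 ± 0.44), and Gad2 at 0, 12.0, 8.27 and 3.96 CPM against 37.3, 141, 245 and 52.9 CPM (-4.25 ± 0.34). Only 1 nucleus held 2 or more UMIs of both Aldh1a1 and Gad2, and none held 2 or more of both Aldh1a1 and Nts. Ntf3 stood at 19.8, 6.00, 46.9 and 11.9 CPM against 123, 137, 169 and 113 CPM (-2.66 ± 0.28), so the Ntf3 of dopamine neurons lay mostly in the nuclei without Aldh1a1. Cck was lower (-1.24 ± 0.12) but still at 376 to 602 CPM in the positive nuclei. Slc26a7 (-2.56 ± 0.33), the netrin receptor Unc5d (-2.22 ± 0.23), Shisa6 (-2.31 ± 0.16), Pde11a (-3.26 ± 0.23) and Tmeff2 (-1.57 ± 0.10) were lower.

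Among glutamate receptor genes, 7 of 18 tested were lower with Aldh1a1 and none was higher (all genes: 3.03% lower, 2.72% higher). They included Grik1 (-2.33 ± 0.36), Grin2a (-1.28 ± 0.17) and Gria3 (-0.77 ± 0.12). Sox6 was lower at -1.36 ± 0.26, with 75.3, 66.0, 66.2 and 3.96 CPM against 112, 141, 198 and 82.1 CPM, but the call was lost without male 1 (-1.24). Of the 47 genes named or listed for this split, 27 kept direction and call in every alternative that was run for them. Adcyap1, Lpl, Tacr3 and Zeb2 were among the 20 that did not. Calcr, the calcitonin receptor, was chosen after its values were seen: it was found with 2 or more UMIs in 32 members, none of them with 2 or more UMIs of Aldh1a1.

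**Figure D4:**
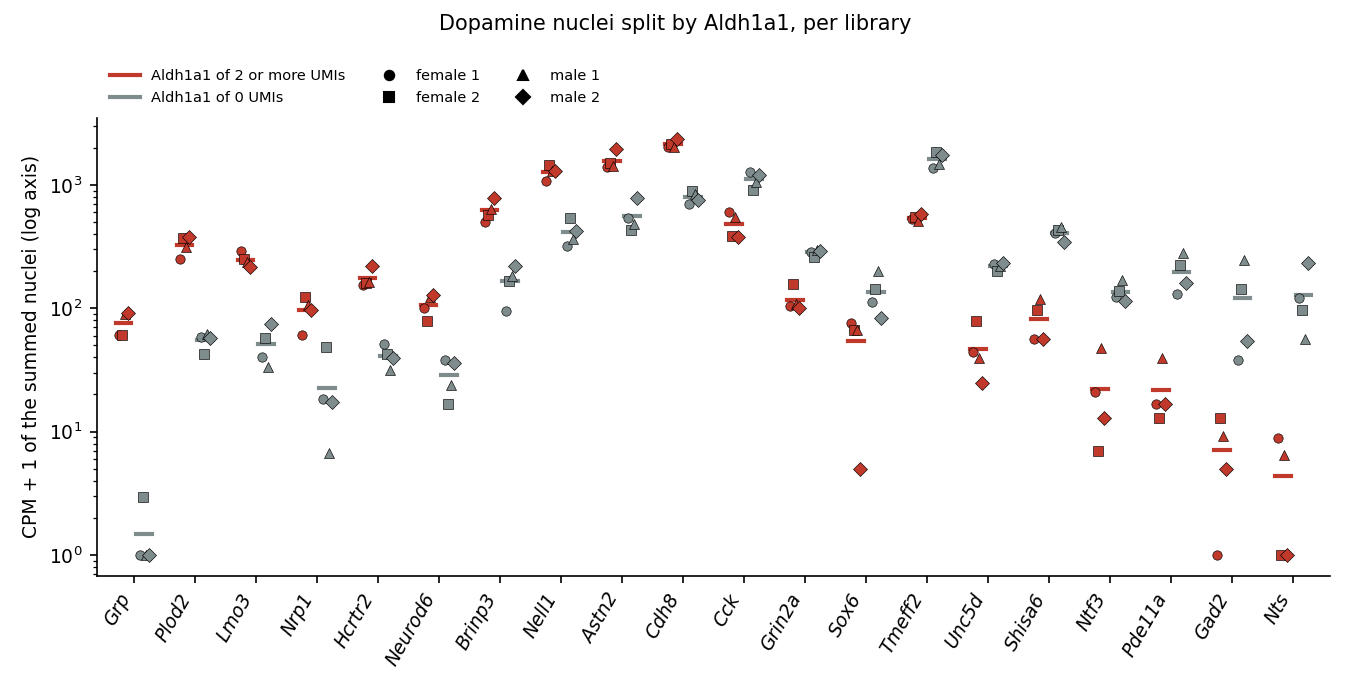
Levels of 20 genes as CPM + 1 on a log axis in dopamine nuclei with 2 or more Aldh1a1 UMIs (red) and with none (grey), with 1 marker per library and a bar at the mean of 4. Grp, at 59.4 to 91.0 CPM, is nearly confined to the red side, and Nts and Gad2 to the grey side.

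Gad2-positive members were fewer, 2, 10, 9 and 8 nuclei. Female 1 had too few for a sum and was left out, so the values below are for female 2, male 1 and male 2. Of 6560 genes tested 142 were called (2.16%), 90 higher (1.37%) and 52 lower (0.793%). The count was 229 without female 2, 78 with DESeq2 and 87 of 1722 tested when thinned. The Gad2-positive nuclei were deeper, with a median of 11122 UMIs against 8748.5 for those without Gad2. They held Th at 330, 382 and 407 CPM, against 671, 846 and 858 CPM in the members without Gad2. Slc6a3 stood at 685, 696 and 904 CPM against 824, 1046 and 828 CPM, lower in female 2 and male 1 and higher in male 2. Both are given as a description because they were gating genes.

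The Gad2-positive nuclei carried a second GABA gene. Slc32a1 stood at 161, 168 and 169.6 CPM against 0, 14.3 and 7.60 CPM (4.47 ± 0.53), and 15 of the 29 nuclei held 2 or more UMIs of it. The anion transporter Slc26a7 stood at 249.9, 872 and 192 CPM against 18.4, 5.21 and 12.7 CPM (5.10 ± 0.49), with 2 or more UMIs in 19 of the 29. Ebf2, an early B-cell factor family member, stood at 226, 199 and 418 CPM against 15.1, 7.82 and 12.7 CPM (4.58 ± 0.32). These 3 genes did not overlap between the sides, and neither did 19.4% of all genes tested over these 3 libraries.

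Further genes higher with Gad2 were the netrin relative Ntng1 (3.92 ± 0.27), Wdpcp (3.12 ± 0.25), the receptor kinase Alk (2.58 ± 0.21), Pld5 (2.30 ± 0.20) and Runx1t1 (2.09 ± 0.18). The lineage factor Lmx1a was higher as well, at 492, 390.0 and 362 CPM against 179, 133 and 153 CPM (1.46 ± 0.19), with Zeb2 (1.85 ± 0.27) and the secreted ligand Wnt2 (1.71 ± 0.25). Aldh1a1 was lower (-5.12 ± 0.46), with 24.2, 0 and 11.3 CPM against 357, 550.1 and 357 CPM. Tmem132d (-4.44 ± 0.34), Nts (-3.78 ± 0.66), Tacr3 (-2.70 ± 0.44) and Lmo3 (-1.97 ± 0.34) were lower, the last 2 not with DESeq2. Sox6 was lower at -2.18 ± 0.42 but not without male 1, with DESeq2 or when 1 UMI of Gad2 was enough. Of 31 genes named or listed for this split, 17 kept direction and call in every alternative run for them.

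**Figure D5:**
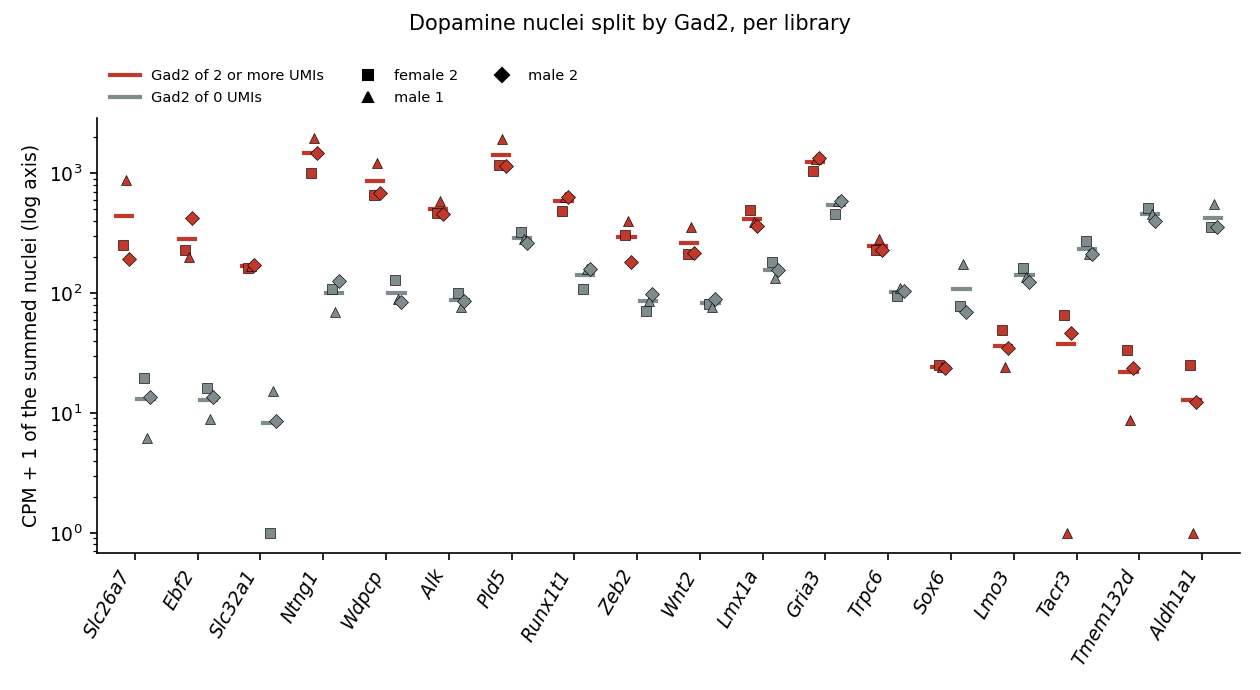
Levels of 18 genes as CPM + 1 on a log axis in dopamine nuclei with 2 or more Gad2 UMIs (red) and with none (grey) in the 3 libraries with enough nuclei, with a bar at the mean. Slc32a1, at 161 to 170 CPM in the red group, is at 0 to 14.3 CPM in the grey group.

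Slc17a6-positive members gave little. There were 3, 6, 5 and 7 nuclei with 2 or more UMIs, female 1 was again left out, and 6 of 6911 genes were called (0.0868%), 3 higher (0.0434%) and 3 lower (0.0434%), with 418 at an unadjusted p under 0.05. Kcnip1, a potassium channel-interacting protein, stood at 388, 98.5 and 268 CPM against 28.3, 30.3 and 27.4 CPM (3.07 ± 0.38). Glial markers moved with 1 library: on the positive side the 8 oligodendrocyte markers summed to 4492, 225 and 246 CPM in female 2, male 1 and male 2, against 753, 1207 and 1289 CPM in members without Slc17a6. The astrocyte markers summed to 1026, 14.1 and 168 CPM against 107, 53.0 and 134 CPM, and the part of these in the calls was not tested beyond the counts below. Col11a1 (3.21 ± 0.46) and Oxr1 (1.63 ± 0.26) were higher, and Cntnap4 (-1.44 ± 0.22), Vsnl1 (-1.40 ± 0.23) and Fam160a1 (-2.29 ± 0.40) lower. No listed gene was called, which cannot be told from the 0.0868% over all genes. The positive nuclei were deeper, at a median of 13407 UMIs against 8879. The count was 0 without male 2, 3 without male 1, 36 without doublet calls, 31 without the Mog nuclei and 94 when 1 UMI of Slc17a6 was enough, and none of the 6 genes kept its call in every alternative. Of the 21 nuclei, 12 also held 2 or more Aldh1a1 UMIs and 3 held 2 or more of Gad2.

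Few genes were called between the sexes in the dopamine nuclei. Of 9460 genes tested between the 2 female and 2 male sums, 6 were called (0.0634%), 1 higher in females (0.0106%) and 5 higher in males (0.0529%), and 395 had an unadjusted p under 0.05. DESeq2 called 5. Eif2s3y and Ddx3 had 0 UMIs in both female sums and stood at 104 and 105 CPM and at 113 and 97.8 CPM in the male ones, at least 56.8-fold and 57.5-fold higher in males with the floor of 3 UMIs over the group. In males Kdm5d stood at 124 and 119 CPM, against 1.29 and 4.65 CPM in the female sums. AC241873.1 was also higher in males, at 330.1 and 283 CPM against 6.47 and 4.65 CPM. AC239701.4 was the fifth, and its call was lost with DESeq2, without female 1 and without female 2. AABR07039356.2 was at 71.2 and 168 CPM in females and had 0 UMIs in males, at least 74.2-fold lower. The counts were 36 without male 2 and 10 without male 1. No gene of the 13 lists was called between the sexes, which cannot be told from the 0.0634% over all genes. A test of whether the sex difference in dopamine nuclei departed from that in other neurons called none of 13025 genes (0%), with 551 at an unadjusted p under 0.05 and a lowest adjusted p of 0.309 by edgeR. DESeq2 also called none, while leaving out a library gave 30 calls (female 1), 13 (female 2), 1 (male 1) or 2 (male 2).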

How the data were processed

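The authors deposited, per the labels' protocols, counts of UMIs per gene and barcode from 10x 3′ libraries of sorted nuclei, made with Cell Ranger on rn6 per the submitters' processing notes (software version 3.0.2 per the file headers). No source used here says whether free RNA was removed. Library totals were 19714338 to 25824289 UMIs.

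UMIs were summed per library and gated group and tested with edgeR 4.0.16 in R 4.3.3 (TMM, filterByExpr, quasi-likelihood test, library as a block within libraries, Benjamini-Hochberg adjustment over all genes tested). Nuclei of a library are not replicates. In the sex test, with 2 pools per sex, the p-values measure the spread between pools. In the tests with library as a block they measure how the difference within a library varies over the libraries. A split needed 5 nuclei on each side of a library. Doublets were marked with Scrublet (scanpy 1.11.5) and kept. Each test was tested on simulated data with 200 changed genes, drawn from genes with at least 200 UMIs, at a single dispersion of 0.02. A changed gene counted as recovered at an adjusted p under 0.05 alone, without the size limit of the class test. At a log2 fold change of 1, recovery was 78% in the class test, 58% for sex and 9% for the interaction. It was 92% for the Aldh1a1 split, 66% for the Gad2 split and 52% for the Slc17a6 split. Recovery of genes with fewer UMIs, or under the size limit, was not simulated. DESeq2 1.42.0, other filters, gates and thinning were alternatives. The members and gene lists were chosen with earlier results of these data known. Named were up to 6 genes per list by lowest p, the 12 largest increases and 8 largest decreases from 20 CPM, and in each further test up to 8 genes by lowest p and the called list genes. Others were named after their values were seen. Of 224 listed genes 220 were found, and some of them are not reported here. Floors and intervals cover counting error only.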

Additional observations from a re-analysis of the deposited data

How the results depend on the processing

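Of the class comparison, counts under other settings ran from 976 to 1397, apart from 718 when nuclei were thinned to 2000 UMIs, where fewer genes could be tested. Leaving out a library gave 1164 to 1235 there, 224 to 364 for the Aldh1a1 split, 130 to 229 for the Gad2 split, 0 to 5 for the Slc17a6 split, 6 to 36 for sex and 1 to 30 for the interaction. DESeq2 gave 185 for Aldh1a1 and 78 for Gad2. Thinning gave 115, 87 and 0 for Aldh1a1, Gad2 and Slc17a6, with fewer genes tested. Without a filter on low counts there were 323 for Gad2, 68 for Slc17a6, 23 for sex and 19 for the interaction. For Slc17a6 there were 94 with a gate of 1 UMI, 36 without doublet calls and 31 without Mog nuclei, the last chosen after seeing the data. The causes were not tested.

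Female minus male share of barcodes ranged from -0.354 to 0.0365 percentage points and of gated neurons from -0.344 to 2.65 when 1 library was left out. Gad1 detection minus background was 1.98 points unthinned and 0.0290 without doublet calls, and -0.229 to 0.169 when 1 library was left out. Slc17a8 ranged from -0.103 to 0.325. Log2 fold changes that turned sign were, against Slc17a6-gated neurons, Gfra2 0.36, Ntrk3 0.21, Gad2 0.20, Slc32a1 0.23, Maob 0.79 and Hcrtr2 -0.32. Against Gad1-gated neurons they were Bdnf 2.33 and Sox6 -0.59. Thinned, they were Ntrk2 0.0167, Fbxo7 -0.21, Qdpr -0.15 and Sox6 -0.24. Sox6 ranged from -0.10 to 0.37 when 1 library was left out, Vip was -0.38 with DESeq2, and Grm3 was 0.28 in the Gad2 split with a gate of 1 UMI. The causes were not tested.

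Same-numbered female and male libraries had deviations correlated at 0.123 over 9460 genes, and nothing in the labels pairs them. A replicate block in the sex fit gave 13 calls, 4 higher and 9 lower in females, and these held all 6 of the fit without it.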
